A study of Mus musculus with 119 samples.

Results

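Tbr1, Emx1, Neurod2, Neurod6, Fezf2, Bhlhe22, Mef2c and Rorb, 8 transcription factors of cortical projection neurons, were followed through 5 brain regions of mice that had received THC or vehicle in adolescence. They were taken by symbol from the deposited tables, 8 of 55291 genes, and all 8 passed the filter on low counts over the whole series, which kept 18932 genes. Messenger RNA had been sequenced from tissue punches. One region was cortical, the prefrontal cortex (PFC), and another was the amygdala (Amy). The striatum was taken as the dorsal medial striatum (DMS) and the nucleus accumbens (NAc), and the midbrain as the ventral tegmental area (VTA). Female and male mice, with no transgene, were given a daily intraperitoneal injection of vehicle or of 10 mg/kg THC from postnatal day 28 to 48, which is 21 injections. Behavior was tested from postnatal day 63 and the brains were taken afterwards. There were 119 libraries in 20 groups of region, sex and treatment, 19 groups with 6 libraries and the male VTA vehicle group with 5. Each library was made from the punch of 1 region, and no label ties the libraries of 1 mouse together. The labels give the strain as C57BL/6J, the age as 11 weeks and the striatal punch as dorsolateral, where the paper names another C57BL/6 substrain, a later age and the DMS.

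These factors specify the glutamatergic neurons of the pallium, the part of the telencephalon that forms the cerebral cortex and the basolateral and cortical amygdala. Emx1 marks the pallial progenitors and their progeny, while Neurod2, Neurod6 and Bhlhe22 are basic helix-loop-helix proteins that act as the neurons differentiate. Tbr1 and Fezf2 set the identities of deep-layer neurons, Tbr1 that of corticothalamic and Fezf2 that of subcerebral cells. Rorb is the orphan nuclear receptor of layer 4, and Mef2c is an activity-regulated factor that shapes synapse number and is also made by microglia. Medium spiny neurons, the main cells of the DMS and NAc, arise from the subpallium, which does not express Emx1 or Tbr1 in the way the pallium does.

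The members lie on 8 loci of GRCm38 (GENCODE M21) and overlap no other annotated gene there, so their counts are not shared with an overlapping transcript. Tbr1 spans chr2:61802930-61814114 and Bhlhe22 chr3:18054174-18057517, both on the plus strand. Emx1 spans chr6:85187438-85204462 and Mef2c chr13:83504034-83667080, again on the plus strand. The minus strand carries Neurod6 at chr6:55677822-55681263, Neurod2 at chr11:98325415-98329648, Fezf2 at chr14:12342094-12348189 and Rorb at chr19:18930605-19111196.

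The promoters of Tbr1, Neurod2 and Neurod6 are shown because the results that follow return to these 3 genes within the amygdala and accumbens. Each is 300 bases from RefSeq (GRCm38.p6), 250 before and 50 after the annotated start, read 5′ to 3′ on the gene's own strand. RefSeq promoters were matched for 7 of the 8 members, all but Bhlhe22. In Neurod2 (chr11:98329596-98329895, minus strand) and Neurod6 (chr6:55681214-55681513, minus strand) the capitals mark E-boxes, the letters CANNTG that basic helix-loop-helix proteins bind. In Tbr1 (chr2:61804203-61804502, plus strand) they mark the homeodomain core TAATTA. Both motifs read the same on either strand.
Neurod2: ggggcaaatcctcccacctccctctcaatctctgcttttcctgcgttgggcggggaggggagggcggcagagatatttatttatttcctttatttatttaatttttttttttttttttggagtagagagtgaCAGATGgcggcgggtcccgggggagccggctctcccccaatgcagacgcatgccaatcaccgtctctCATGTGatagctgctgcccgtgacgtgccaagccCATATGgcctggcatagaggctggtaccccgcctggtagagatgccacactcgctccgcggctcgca
Neurod6: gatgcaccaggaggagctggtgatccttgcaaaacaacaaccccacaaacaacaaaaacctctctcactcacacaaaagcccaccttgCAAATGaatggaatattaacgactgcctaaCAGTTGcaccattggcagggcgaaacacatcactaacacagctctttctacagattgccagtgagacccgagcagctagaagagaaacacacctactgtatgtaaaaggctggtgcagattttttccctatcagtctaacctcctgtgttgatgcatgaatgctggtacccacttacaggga
Tbr1: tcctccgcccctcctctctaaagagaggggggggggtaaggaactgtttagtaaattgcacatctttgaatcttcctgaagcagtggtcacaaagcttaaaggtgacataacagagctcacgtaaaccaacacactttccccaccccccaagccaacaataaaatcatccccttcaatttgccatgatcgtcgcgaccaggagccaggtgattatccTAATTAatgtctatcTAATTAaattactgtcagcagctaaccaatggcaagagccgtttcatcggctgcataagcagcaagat
The Neurod2 window held 3 E-boxes, 1 of them the CAGATG form, and the Neurod6 window held 2. Of 32851 mouse promoters of this length, 72.3% held at least 1 E-box and 17.2% a CAGATG on either strand. The Tbr1 window held 2 copies of TAATTA, letters found in 5.3% of promoters. A match of letters is a description of the window and was not tested for binding.

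Levels are given as counts per M (CPM) scaled by the trimmed mean of M values (TMM). Depth, the sum of expected counts of a library in megacounts (M), had a median of 22.1 M over the 119 libraries and ran from 3.09 M in VTA library FTL_371 to 77.04 M. Libraries are named as in their labels. Xist and Y-linked genes went with the labelled sex in 117 libraries and against it in 2 amygdala THC libraries, FTL_344 (labelled female) and FTL_356 (labelled male). The DMS vehicle library FTL_285 stood apart in 7 of the members, as described with the DMS.

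Of the 8 factors 7 were higher in every PFC library than in any amygdala library, while Bhlhe22 overlapped between these regions. Tbr1 ran from 173 to 230 CPM in the 24 PFC libraries (median 203) and from 16.2 to 54.6 CPM in the amygdala (median 29.1). The log2 difference was 2.75 (SE 0.16, adjusted p = 1.51e-30), by edgeR's quasi-likelihood test with Benjamini-Hochberg adjustment over 18932 genes, which is used for all region differences. Neurod6 went from 106 to 157 CPM in the PFC and from 12.98 to 48.8 CPM in the amygdala, a log2 difference of 2.28 (SE 0.16). Neurod2 went from 114 to 136 CPM and from 11.8 to 56.8 CPM, a log2 difference of 2.04 (SE 0.19). The gaps were of the same order for the other factors that separated the regions. On the log2 scale the difference was 1.96 (SE 0.069) for Mef2c, 1.85 (SE 0.13) for Emx1, 1.77 (SE 0.094) for Fezf2 and 1.44 (SE 0.053) for Rorb.

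Bhlhe22, which works with the repressor Prdm8 in the wiring of corticospinal axons, was the member that did not separate PFC from amygdala. Its level ran from 20.5 to 51.6 CPM in the PFC (median 36.5) and from 7.39 to 79.3 CPM in the amygdala (median 31.7), so the amygdala libraries reached both below and above the cortical ones. The log2 difference was 0.16 (SE 0.15, adjusted p = 0.326 by edgeR). Prdm8 itself was higher in the PFC by 0.51 on the log2 scale (SE 0.14).

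Genes counted as called had a log2 fold change of 0.4 or more in size beside an FDR below 0.05. By that rule 7 of 8 members were called higher in the PFC than in the amygdala, where 15.6% of all genes were. Against the NAc, DMS and VTA 8 of 8 were called higher, where 20.8%, 23.9% and 25.4% of all genes were. The groups did not overlap for 7 of 8 members against the amygdala (9.48% of all genes, higher) and for 8 of 8 against the NAc, DMS and VTA (15.6%, 17.5% and 17.4%). In the THC comparisons Tbr1, Emx1, Neurod2 and Neurod6 did not pass the filter within the DMS. Neither did Tbr1, Emx1 and Fezf2 within the VTA, nor Emx1 within the NAc. These entered the fit of all libraries through regions where they were high, so their calls against those regions were largely given in advance. The 5 libraries of a mouse entered these fits as if independent, and PFC and DMS counts came in 1 table and those of the NAc, Amy and VTA in another, so a difference between the tables cannot be told apart from one between regions across them. In bulk tissue fewer cells of a type and less RNA per cell cannot be told apart either. The median log2 difference of all genes in the 4 PFC comparisons was -0.045 to -0.023 with TMM and -0.205 to -0.11 with scaling by library totals, which changed the sign of no member's PFC difference.

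**Figure D1:**
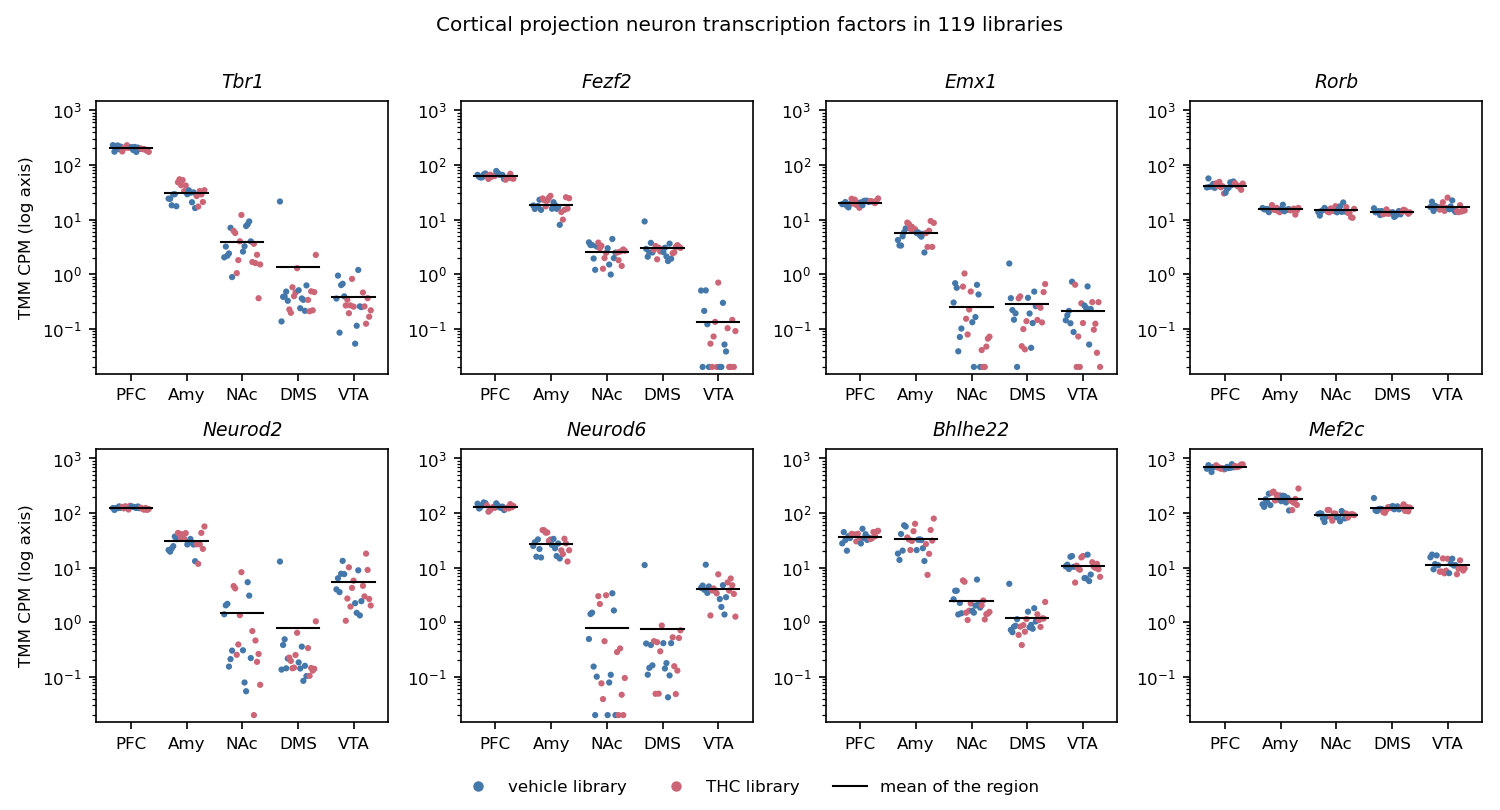
Level of each member (TMM CPM, log axis) in the 119 libraries by region, one point per library, blue for vehicle and red for THC, with a bar at the mean of the region and values of 0 drawn at 0.02 CPM. PFC libraries lie highest in every panel except that of Bhlhe22, where amygdala libraries run from 7.39 to 79.3 CPM around the PFC range of 20.5 to 51.6 CPM.

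The factors kept different residual levels outside the pallial punches. Tbr1, Fezf2 and Emx1 came close to 0 in the VTA, at 0.0533 to 1.19 CPM, 0 to 0.700 CPM and 0 to 0.727 CPM. The PFC exceeded the VTA by 9.39 (SE 0.28) for Tbr1, by 9.47 (SE 0.19) for Fezf2 and by 6.68 (SE 0.21) for Emx1 on the log2 scale. In the striatum the median of Tbr1 was 0.388 CPM for the DMS but 2.896 CPM for the NAc, and NAc minus VTA was 3.48 on the log2 scale (SE 0.38, adjusted p = 1.64e-14 by edgeR). Fezf2 was counted in both striatal punches. All 24 DMS libraries had 1.74 to 9.24 CPM of Fezf2 (median 2.80) and all 24 NAc libraries 0.984 to 4.41 CPM (median 2.54), without overlap with the VTA. For Fezf2 the log2 difference from the VTA was 5.08 (SE 0.26, adjusted p = 4.42e-36 by edgeR) in the DMS and 4.87 (SE 0.26) in the NAc. For the DMS and NAc themselves it was -0.20 (SE 0.13, adjusted p = 0.169), NAc minus DMS.

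Neurod2, Neurod6 and Bhlhe22 were present in every VTA library. Neurod6, known as a marker of a subset of midbrain dopamine neurons, ran from 1.27 to 11.4 CPM there (median 3.83). In the DMS its median was 0.237 CPM and in the NAc 0.132 CPM. The log2 difference, DMS minus VTA, was -2.88 (SE 0.35, adjusted p = 1.34e-12 by edgeR). Neurod2 ran from 1.07 to 18.1 CPM in the VTA (median 4.01), and DMS minus VTA was -3.37 (SE 0.42). Without the DMS library FTL_285 these differences were -3.67 for Neurod6 and -4.18 for Neurod2. Bhlhe22 ran from 5.34 to 17.3 CPM in the VTA and from 0.384 to 5.07 CPM in the DMS, with no overlap. DMS minus VTA was -3.09 for Bhlhe22 (SE 0.22). In that comparison 58.9% of all genes were called, and 54.7% between NAc and VTA. Summed markers of dopamine neurons (8 genes, such as Th and Slc6a3) stood at 1171 to 4111 CPM in the VTA and at 9.51 to 56.8 CPM in the other regions. Summed thalamic markers (4 genes) stood at 150 to 376.1 CPM in the VTA against at most 118 CPM elsewhere, and the part of either in these levels was not tested.

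Mef2c and Rorb were at 7.58 CPM or more in every library of the 5 regions. Mef2c ran from 565 to 786 CPM in the PFC, from 112 to 281.8 CPM in the amygdala, from 101 to 189 CPM in the DMS, from 68.7 to 114 CPM in the NAc and from 7.58 to 17.3 CPM in the VTA. Each neighbouring pair in that order was called, the closest being the NAc below the DMS at -0.44 (SE 0.068) and the amygdala above the DMS at 0.53 (SE 0.068). Both of those pairs overlapped, and neither call was kept throughout, since the former was -0.40 without library FTL_285 and -0.35 with library totals and the latter was 0.34 in vehicle libraries alone. Of all genes 33.5% were called between NAc and DMS, 44.9% between amygdala and DMS and 46.3% between amygdala and VTA. The microglial markers, a 6-gene sum, stood at 179 to 218 CPM in the PFC, 188 to 278.97 CPM in the amygdala, 213 to 295.2 CPM in the DMS, 176 to 257 CPM in the NAc and 153 to 311.98 CPM in the VTA, and their part in the Mef2c levels was not tested. Rorb ran from 30.0 to 56.6 CPM in the PFC and from 10.8 to 25.2 CPM over the 95 libraries of the other 4 regions. Among those regions 4 of 6 Rorb differences had an FDR under 0.05 and none reached 0.4 in size, the widest being DMS minus VTA at -0.30 (SE 0.055). Amygdala minus NAc was 0.066 in Rorb (SE 0.054, adjusted p = 0.281 by edgeR).

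Against the NAc the amygdala was called higher in 7 of 8 members, all but Rorb, where 15.4% of all genes were. Within the NAc Emx1 did not pass the filter of the THC comparisons in either sex, nor Neurod2 and Neurod6 in males. For these the call was partly given in advance. The log2 difference was 5.65 (SE 0.26) for Neurod6, 4.86 (SE 0.22) for Emx1, 4.84 (SE 0.28) for Neurod2, 3.82 (SE 0.19) for Bhlhe22, 3.17 (SE 0.20) for Tbr1, 2.83 (SE 0.12) for Fezf2 and 0.97 (SE 0.068) for Mef2c. Libraries of the regions did not overlap for 6 of these members (3.85% of all genes, higher), the exception being Mef2c.

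Other genes of the same programs were split between PFC and amygdala, where 15.6% of all genes were called higher in the PFC and 22.1% lower. Of 7 other upper-layer factors 5 were called higher in the PFC and 1 lower. Cux1 was the lower one, at -0.51 on the log2 scale (SE 0.030). Of 7 deep-layer factors 2 were higher, Tle4 and Sox5, and 1 was lower, Etv1. Of 9 pallial and telencephalic factors 7 were higher, with Neurod1 at 2.15 (SE 0.19), and Pax6 was lower at -2.01 (SE 0.087). Of 10 relatives and partners of the members 8 were tested, 4 were higher, with Rora leading at 0.73 (SE 0.038), and 3 were lower, with Fezf1 at -4.70 (SE 0.37). Of 8 genes known to be regulated by the members 5 were higher, with Slc17a7, the vesicular glutamate transporter of cortical neurons, at 1.61 (SE 0.39). The medians were 1.47, 0.16, 1.08, 0.35 and 0.56 in these lists and 1.90 in the members, with -0.054 over all genes.

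Within the amygdala the members spread unevenly between libraries. Bhlhe22 spread by 10.7-fold from the lowest to the highest of 24 libraries, Neurod6 by 3.76-fold, Tbr1 by 3.37-fold and Rorb by 1.52-fold. After the mean of each of the 4 groups was removed, the SD of log2 CPM was 0.83 for Bhlhe22, above that of 95.8% of all genes in the amygdala. It was 0.50 for Neurod2, 0.47 for Emx1, 0.43 for Neurod6, 0.39 for Fezf2, 0.35 for Tbr1, 0.33 for Mef2c and 0.13 for Rorb, beside a median of 0.22 over 18932 genes. In the PFC the same SD was 0.29 for Bhlhe22 and 0.065 to 0.22 for the others, with a median of 0.14 over all genes.

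Most members went together over the amygdala libraries, with Rorb apart from the others and Bhlhe22 apart from Tbr1 and Neurod6. Tbr1 and Neurod6 rose and fell together over the 24 amygdala libraries (Pearson r = 0.896, permutation p = 1e-05, adjusted p = 5.6e-05; Spearman rho = 0.837, permutation p = 1e-05, adjusted p = 0.000112). This p of 1e-05 is the smallest that 100000 permutations can give. Without the 2 libraries farthest from the median of Tbr1, r was 0.866, and within the groups it was 0.818. Neurod2 went most closely with Emx1 (r = 0.911, permutation p = 1e-05, adjusted p = 5.6e-05; rho = 0.915, permutation p = 1e-05, adjusted p = 0.000112), with r = 0.8875 without the 2 farthest libraries. Its r was 0.872 with Fezf2, 0.870 with Mef2c and 0.733 with Tbr1. Bhlhe22 in turn went most closely with Neurod2 (r = 0.825, permutation p = 1e-05, adjusted p = 5.6e-05; rho = 0.773, permutation p = 3e-05, adjusted p = 0.000168). The r of Bhlhe22 and Neurod2 was 0.715 without the 2 farthest libraries and 0.849 within the groups. Neurod6 and Bhlhe22 gave r = 0.021 (permutation p = 0.922, adjusted p = 0.939; rho = -0.013, permutation p = 0.953, adjusted p = 0.956), with -0.080 without the 2 farthest libraries and -0.20 within the groups. Tbr1 and Bhlhe22 gave r = 0.314 (permutation p = 0.137, adjusted p = 0.192; rho = 0.331, permutation p = 0.115, adjusted p = 0.160), with 0.343 without the 2 farthest libraries.

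Single libraries show how far Neurod6 and Bhlhe22 came apart. Library FTL_356 had the highest Bhlhe22, Neurod2 and Mef2c of the amygdala, at 79.3, 56.8 and 281.8 CPM, and 20.8 CPM of Neurod6, below the median of 26.9. Library FTL_339 had the highest Neurod6, at 48.8 CPM, with 35.7 CPM of Bhlhe22. Library FTL_334 had 29.2 CPM of Neurod6 and 13.9 CPM of Bhlhe22, while library FTL_338 of the same group had 15.4 CPM of Neurod6 and 56.6 CPM of Bhlhe22. Other libraries went the same way in both genes. Library FTL_350 was low in both, at 14.8 CPM of Neurod6 and 13.3 CPM of Bhlhe22, and library FTL_344 high in both, at 32.8 and 63.7 CPM. Over the 24 libraries the r of Neurod6 and Bhlhe22 was 0.021, so the picked libraries show no opposition. Genes that followed each member most closely in the amygdala, named after their values were seen, were Enc1 for Tbr1 (r = 0.973), Rspo2 for Neurod6 (r = 0.965), Ccn3 for Neurod2 (r = 0.960) and Syt17 for Bhlhe22 (r = 0.918).

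Over the 28 pairs of members in the amygdala, 19 had an adjusted permutation p of Pearson's r under 0.05, all of them among the 21 pairs without Rorb. The same count was not made for pairs of other genes, so it is not shown to be particular to the members. The median r was 0.669 over all pairs, 0.751 without Rorb and -0.002 over the pairs with Rorb. In all, 56 pairs were computed in the amygdala and NAc, and the p-values were adjusted over them. Depth and punch differ between libraries and are common to all genes of a library, and the correlations describe these 24 libraries. Log2 depth had an r of 0.538 with Neurod6 (permutation p = 0.0068, adjusted p = 0.0544; rho = 0.496, permutation p = 0.0155, adjusted p = 0.124) in the amygdala, 0.505 without the 2 farthest libraries and 0.321 within the groups. For Tbr1 the r with log2 depth was 0.435 (permutation p = 0.0341, adjusted p = 0.145) and rho 0.444 (permutation p = 0.0316, adjusted p = 0.169). Its r was 0.404 without the 2 farthest libraries and 0.223 within the groups. Rorb had an r of 0.405 with log2 depth (permutation p = 0.0473, adjusted p = 0.151), and the other members ran from -0.0305 to 0.247.

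**Figure D2:**
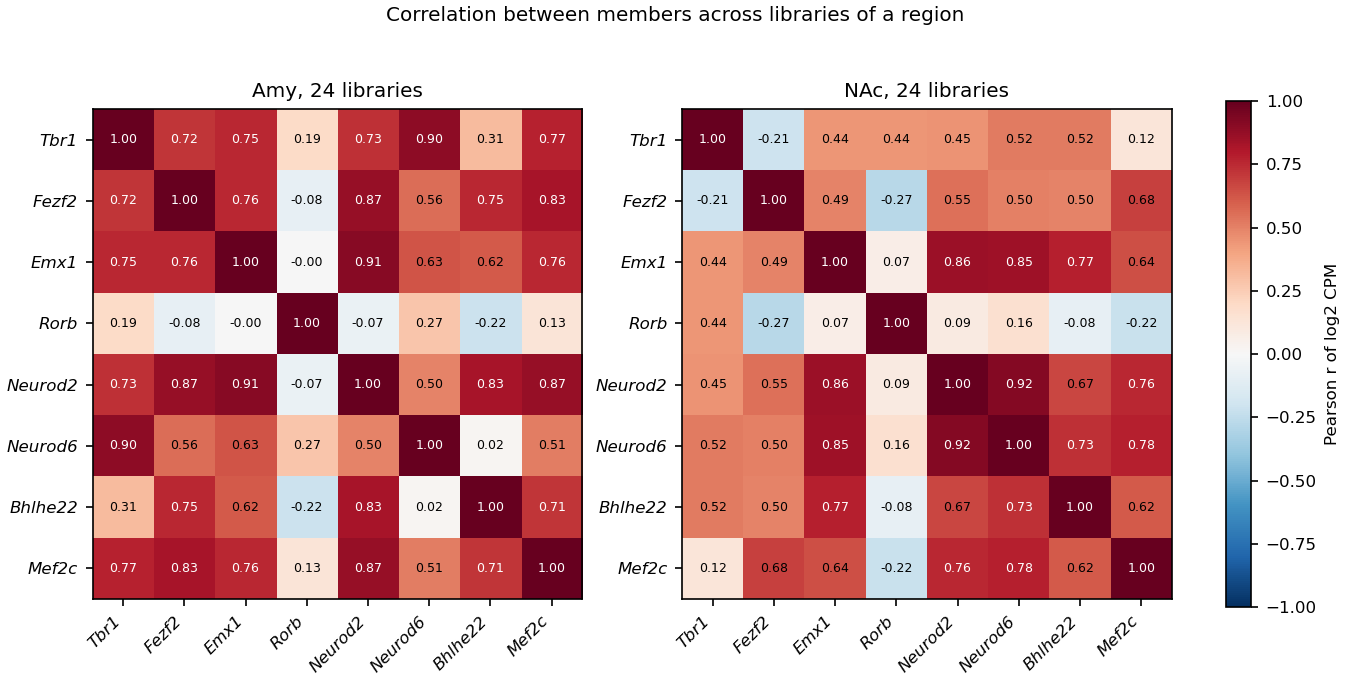
Pearson r of log2 CPM between each pair of members over the 24 amygdala libraries (left) and the 24 NAc libraries (right), with the color bar from -1 to 1. In the amygdala Tbr1 and Neurod6 stand at 0.896 and Neurod6 and Bhlhe22 at 0.021, whereas Rorb lies between -0.27 and 0.44 with the other members over both regions.

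In the NAc the NeuroD factors were near 0 in most punches and clearly counted in some. Neurod2 was under 1 CPM in 15 of 24 libraries and between 1.35 and 8.28 CPM in the other 9. Neurod6 reached 1 CPM in 7 libraries, with a highest value of 3.40 CPM, and 5 libraries had no count of it. The SD of log2 CPM after removal of group means was 1.76 for Neurod2 and 1.88 for Neurod6, each above 99.8% of all genes, at levels where counting error adds to the SD. Neurod2 and Neurod6 went together over the NAc libraries (r = 0.921, permutation p = 1e-05, adjusted p = 5.6e-05; rho = 0.796, permutation p = 3e-05, adjusted p = 0.000168), with r = 0.894 without the 2 farthest. The gene closest to either was Slc17a7, with an r of 0.949 for both over 24 libraries, named after its values were seen. Libraries FTL_320, FTL_324, FTL_315 and FTL_316 had the most Slc17a7, at 115, 85.8, 67.6 and 61.7 CPM, and were also the highest for Neurod2.

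Some NAc libraries held Tbr1 without Neurod2. It ran from 0.362 to 12.1 CPM (median 2.896), and library FTL_320 was the highest for both. Libraries FTL_313 and FTL_323 had 7.07 and 7.60 CPM of Tbr1, among the highest of the NAc, with 0.212 and 0.0547 CPM of Neurod2 and 0.848 and 2.13 CPM of Slc17a7. These rest on 100 and 139 counts of Tbr1 and on 3 and 1 counts of Neurod2. The correlation of Tbr1 with Neurod2 was r = 0.450 (permutation p = 0.0266, adjusted p = 0.0403; rho = 0.316, permutation p = 0.132, adjusted p = 0.180), falling to 0.356 without the 2 farthest libraries. The thalamic markers stood at 32.2 and 42.8 CPM in libraries FTL_313 and FTL_323, where the NAc median was 18.6 CPM. Tbr1 also fell with log2 depth in the NAc (r = -0.591, permutation p = 0.00208, adjusted p = 0.0333; rho = -0.630, permutation p = 0.0013, adjusted p = 0.0208), with r = -0.518 without the 2 farthest libraries. The part of either in the Tbr1 level was not tested. Fezf2 did not follow Tbr1 in the NAc (r = -0.21, permutation p = 0.323, adjusted p = 0.402; rho = -0.22, permutation p = 0.296, adjusted p = 0.377), with r = -0.22 without the 2 farthest libraries.

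In the DMS 1 library stood above the rest in every member. Library FTL_285, from a vehicle-treated female, had 21.4 CPM of Tbr1, 12.9 CPM of Neurod2, 11.2 CPM of Neurod6, 9.24 CPM of Fezf2, 5.07 CPM of Bhlhe22, 1.57 CPM of Emx1 and 189 CPM of Mef2c. In the 23 other DMS libraries the highest values were 2.25, 1.04, 0.873, 3.74, 2.36, 0.659 and 144 CPM. Rorb was 16.1 CPM in library FTL_285 and 11.2 to 15.4 CPM in the others. Slc17a7 stood at 206 CPM in library FTL_285 and at 1.67 to 19.0 CPM in the others, while the summed markers of medium spiny neurons (10 genes) were at 7034 CPM within the range of 5708 to 9570 CPM of the region. The part of projection neuron RNA in these values was not tested. Without library FTL_285 the DMS exceeded the VTA in Tbr1 by 0.62 (adjusted p = 0.150 by edgeR), where it had been 1.52 (SE 0.54, adjusted p = 0.00697).

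**Figure D3:**
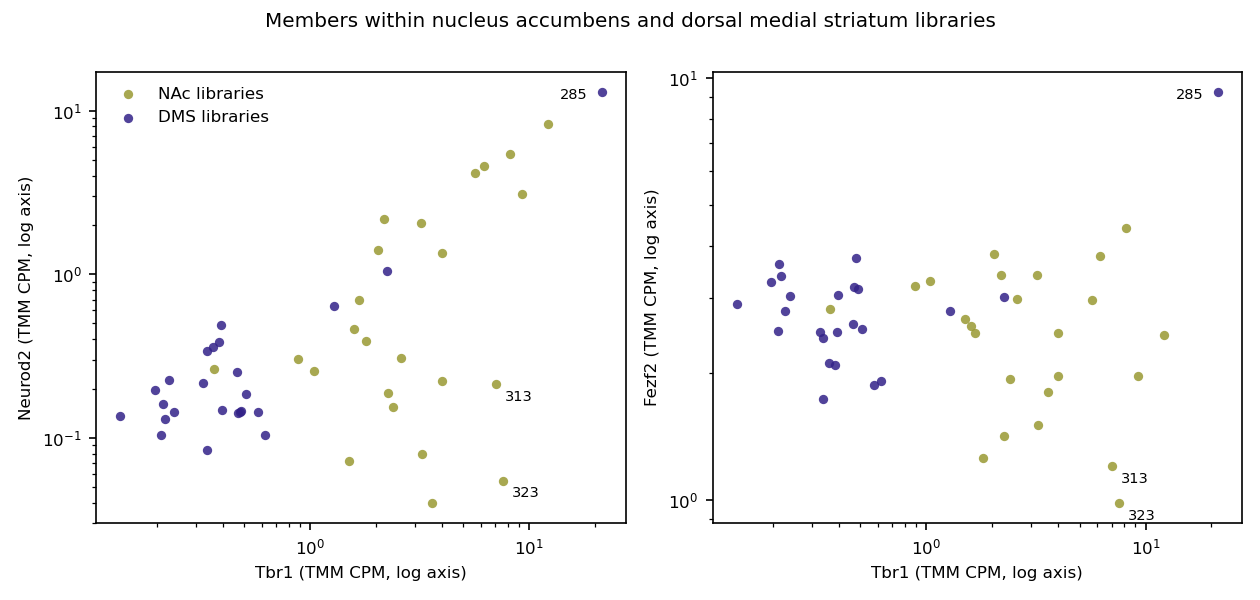
Tbr1 (TMM CPM, log axis) against Neurod2 (left) and Fezf2 (right) in the 24 NAc libraries (olive) and 24 DMS libraries (violet), one point per library, with a value of 0 drawn at 0.04 CPM. Library FTL_285 of the DMS stands at 21.4 CPM of Tbr1, and NAc libraries FTL_313 and FTL_323 have over 7 CPM of Tbr1 with Neurod2 under 0.3 CPM.

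THC was compared with vehicle within each region and sex, to see whether the factors differed weeks after the last injection. Of 80 pairs of member and comparison 62 passed the filter on low counts, and 2 of these 62 were called, both in the female amygdala, with no call among the other 60. The 18 pairs not tested were Tbr1, Emx1, Neurod2 and Neurod6 in the DMS of both sexes, Tbr1, Emx1 and Fezf2 in the VTA of both sexes, Emx1 in the NAc of both sexes, and Neurod2 and Neurod6 in the male NAc.

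Tbr1 and Neurod6 were higher in the amygdala of THC-treated females. Tbr1 ran from 17.5 to 29.1 CPM in the 6 vehicle libraries (median 24.1) and from 33.1 to 54.6 CPM in the 6 THC libraries (median 45.3). All 6 THC libraries were above all vehicle libraries, which held for 2.59% of all genes in that direction. The log2 fold change of Tbr1 was 0.94 (SE 0.14, adjusted p = 0.0103) by edgeR over 17003 genes. Neurod6 ran from 15.4 to 33.0 CPM in vehicle (median 23.5) and from 30.9 to 48.8 CPM in THC libraries (median 44.0), and the groups overlapped in 2 THC libraries, FTL_343 and FTL_344. Its log2 fold change was 0.83 (SE 0.18, adjusted p = 0.0353). Of the 8 members 2 were called higher, where 1.09% of all genes were, in a comparison in which 21.9% of all genes had an unadjusted p under 0.05.

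The call of Tbr1 was kept with each of the 12 libraries left out, at an adjusted p of 0.00491 to 0.0383 and a log2 fold change of 0.87 to 1.01. It was kept without library FTL_344, whose sex genes went against its label, at 0.97 (adjusted p = 0.0193 by edgeR). The call of Neurod6 was kept in 5 of the 12 and lost in 7, without library FTL_333, FTL_335, FTL_337, FTL_339, FTL_340, FTL_341 or FTL_342, at an adjusted p of up to 0.0947. It was also lost with no filter (adjusted p = 0.0997) and with all 4 groups of the amygdala in 1 fit (adjusted p = 0.0639), with a log2 fold change of 0.73 to 0.93 throughout.

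The other 6 members were not called in the female amygdala. Neurod2 ran from 19.7 to 37.2 CPM in vehicle and from 33.9 to 43.3 CPM in THC libraries, with a log2 fold change of 0.58 (SE 0.15, adjusted p = 0.0513 by edgeR). Emx1 ran from 3.35 to 6.88 CPM and from 6.18 to 8.78 CPM, with a log2 fold change of 0.61 (SE 0.17, adjusted p = 0.0747). DESeq2 called both, at an adjusted p of 0.00459 for Neurod2 and 0.0122 for Emx1. In edgeR Neurod2 passed without library FTL_337 or FTL_338 (adjusted p = 0.0279 and 0.0337) and Emx1 without library FTL_338 (adjusted p = 0.0105). Fezf2 had a log2 fold change of 0.37 (SE 0.11, adjusted p = 0.0932), reaching 0.45 (adjusted p = 0.0450) without library FTL_337, and Mef2c one of 0.35 (SE 0.13, adjusted p = 0.146). Bhlhe22 ran from 13.9 to 59.8 CPM in vehicle and from 21.05 to 63.7 CPM in THC libraries, with a log2 fold change of 0.12 (SE 0.39, adjusted p = 0.888). Rorb ran from 13.6 to 16.3 CPM and from 13.6 to 18.4 CPM, with a log2 fold change of 0.012 (SE 0.077) and of -0.028 under scaling by library totals.

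**Figure D4:**
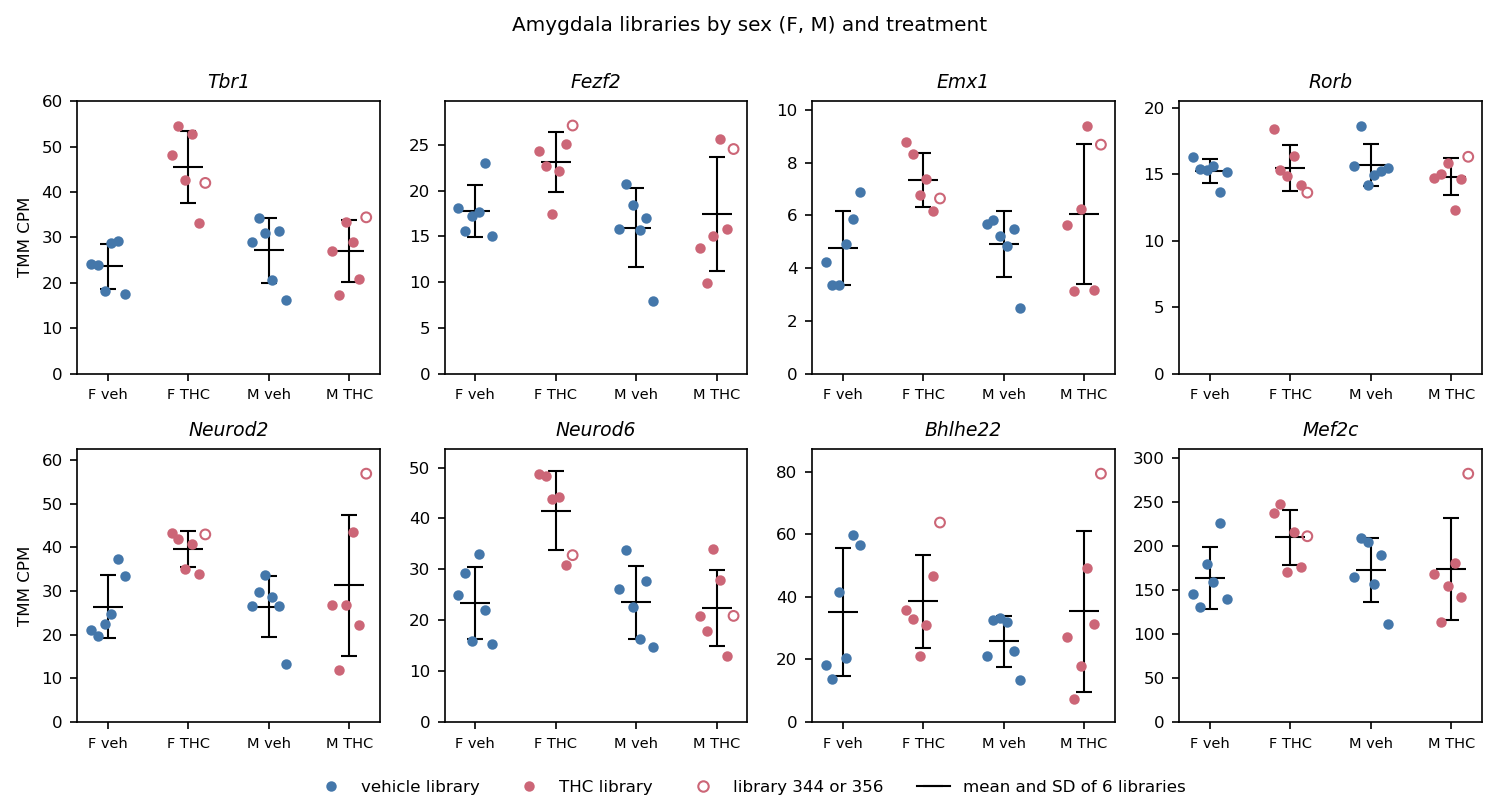
Level of each member (TMM CPM, linear axis from 0) in the 24 amygdala libraries by sex (F, M) and treatment, points for libraries, bars for the mean and SD of 6 libraries, and open circles for libraries FTL_344 and FTL_356. The THC females sit between 33.1 and 54.6 CPM for Tbr1, all above the vehicle females, while the male groups overlap in every panel.

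Some genes of the other projection neuron lists were also called higher in the female amygdala, where 1.09% of all genes were, and most were not called. Of 7 deep-layer factors 3 were called higher, Nr4a2 at 0.60 (SE 0.11), Zfpm2 at 0.44 (SE 0.10) and Bcl11b at 0.42 (SE 0.099) on the log2 scale. Of 7 upper-layer factors Lmo4 was higher at 0.46 (SE 0.091), and of 7 tested pallial factors Zbtb18 was higher at 0.52 (SE 0.087). Of 8 tested relatives and partners Prdm8, the partner of Bhlhe22, was higher at 0.50 (SE 0.11). Of 8 genes known to be regulated by the members 2 were higher, Slc17a7 at 0.76 (SE 0.11) and Bcl11b, which is also in the deep-layer list. None in these 5 lists was called lower, and the medians were 0.44, 0.091, 0.023, 0.24 and 0.29, beside 0.47 for the members and -0.0057 over all genes.

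Of the summed marker lists, that of projection neurons narrowly did not overlap between these female groups, and the sums of all other lists measured overlapped. Glutamatergic projection neuron markers other than the members were summed over 8 genes. The sum was at 2503 to 3281 CPM in vehicle and 3283 to 4200 CPM in THC libraries. Of these 8 genes 3 were called higher, among them Ntng2 at 0.91 (SE 0.077) and Slc17a7. Of all genes 1.09% were called higher and 0.476% lower in this comparison. The sum is not particular to such neurons. Its median was 2414 CPM in the DMS, where its genes Camk2a, Nrgn and Slc17a7 averaged 1326, 971 and 12.1 CPM. The sum of 10 hypothalamic and medial amygdala genes was at 48.0 to 71.4 CPM in vehicle and 36.3 to 48.5 CPM in THC libraries. Of these 10 genes 6 were tested and Lhx6 was called lower at -0.48 (SE 0.098), with Hmx2 at 0 in every library of both groups and Hmx3 at 0 in the vehicle group. Summed markers of medium spiny neurons were at 504 to 1086 CPM and 829 to 1376 CPM with 0 of 10 called, and thalamic markers at 33.7 to 93.9 CPM and 29.2 to 61.3 CPM with 0 of 4 called. Oligodendrocyte markers were at 2301 to 7390 CPM and 2492 to 4378 CPM, and depth was 13.02 to 46.0 M and 20.3 to 76.1 M. Interneuron markers were at 1613 to 1973 CPM and 1628 to 1819 CPM, with Lhx6 the 1 gene called of 8, and of 5 tested dopaminergic markers Th was called lower at -0.64 (SE 0.13) beside Nr4a2, which is also in the deep-layer list. The part of any of these in the change of Tbr1 and Neurod6 was not tested.

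In the male amygdala 0 members were called, and edgeR called 0 of 15321 genes, with 1.84% of genes at an unadjusted p under 0.05 and 0 called by DESeq2 too. Tbr1 ran from 16.2 to 34.4 CPM in vehicle (median 30.0) and from 17.3 to 34.4 CPM in THC libraries (median 27.9), with a log2 fold change of -0.015 (SE 0.20). Neurod6 ran from 14.8 to 33.7 CPM and from 12.98 to 33.9 CPM, with a log2 fold change of -0.089 (SE 0.24). Bhlhe22 had a log2 fold change of 0.46 (SE 0.46) and Neurod2 one of 0.25 (SE 0.33). Without THC library FTL_356, whose sex genes went against its label, that of Neurod2 was -0.0133. With 1 library left out, that of Bhlhe22 ran from 0.0391 to 0.6785. The females differed from the males in the effect of THC by 0.96 for Tbr1 (SE 0.26, unadjusted p = 0.00109, adjusted p = 0.235 by edgeR) and by 0.91 for Neurod6 (SE 0.32, adjusted p = 0.256). No member was called in this interaction, where 0.0059% of all genes were and 15.8% had an unadjusted p under 0.05. Without libraries FTL_344 and FTL_356 the differences were 1.06 for Tbr1 (adjusted p = 0.196) and 0.96 for Neurod6 (adjusted p = 0.200).

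In the PFC, where the members were highest, 0 of 8 were called in either sex, and 0 of all genes (5.84% of genes in females and 4.07% in males had an unadjusted p under 0.05). The log2 fold changes in females ran from -0.22 (SE 0.072) for Neurod6 to 0.19 (SE 0.17) for Bhlhe22. In males they ran from -0.19 (SE 0.075) for Fezf2 to 0.12 (SE 0.15) for Bhlhe22. Neurod2 was at -0.10 (SE 0.031) in males and 0.043 (SE 0.041) in females. The PFC interaction had no call among the members or among all genes, 5.87% of which had an unadjusted p under 0.05.

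In the NAc the values of Tbr1 went in opposite directions in the sexes, without a call in either. In males Tbr1 ran from 2.59 to 9.24 CPM in vehicle (median 5.79) and from 0.362 to 3.60 CPM in THC libraries (median 1.63), with overlapping groups. The log2 fold change was -1.74 (SE 0.45, unadjusted p = 0.00226, adjusted p = 0.210 by edgeR), in a comparison that called 0 of 15932 genes while 16.7% had an unadjusted p under 0.05. In females Tbr1 ran from 0.884 to 7.07 CPM in vehicle and from 1.04 to 12.1 CPM in THC libraries, with a log2 fold change of 0.85 (SE 0.63, adjusted p = 0.991), where 0 genes were called and 4.61% had an unadjusted p under 0.05. The difference between the sexes was 2.59 (SE 0.80, unadjusted p = 0.00399, adjusted p = 0.384 by edgeR), in an interaction with 0 calls and 11% of genes at an unadjusted p under 0.05. In males the thalamic markers were at 17.2 to 42.8 CPM in vehicle and 9.78 to 22.04 CPM in THC libraries, and those of medium spiny neurons at 2615 to 3968 CPM and 3552 to 5362 CPM. Depth was 12.1 to 21.7 M in male vehicle and 14.7 to 40.2 M in male THC libraries, and the part of these in the Tbr1 values was not tested. Fezf2, Bhlhe22, Mef2c and Rorb had log2 fold changes of -0.061 (SE 0.29), -0.61 (SE 0.33), 0.063 (SE 0.089) and -0.23 (SE 0.13) in the male NAc.

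The DMS and VTA gave no call among the tested members in either sex, and edgeR called 2 genes (0.0127%) in the female DMS, 0 in the male DMS and 0 in the VTA of either sex. Genes with an unadjusted p under 0.05 made up 8.90% and 1.93% in the female and male DMS and 9.02% and 5.92% in the female and male VTA. In the female DMS Bhlhe22 was at -1.06 (SE 0.54) and Fezf2 at -0.50 (SE 0.34), and without the vehicle library FTL_285 they were at -0.16 and -0.0041. In the male VTA Neurod2 ran from 1.34 to 8.95 CPM in the 5 vehicle libraries and from 2.03 to 18.1 CPM in the 6 THC libraries, with a log2 fold change of 1.42 (SE 0.75, adjusted p = 0.819). In the female VTA it was -0.66 (SE 0.51, adjusted p = 0.699). The DMS and VTA interactions called 0 genes, with 5.9% and 6.16% of genes at an unadjusted p under 0.05, and Tbr1 in the DMS interaction went from -3.65 (SE 1.58) to -0.15 without library FTL_285.

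**Figure D5:**
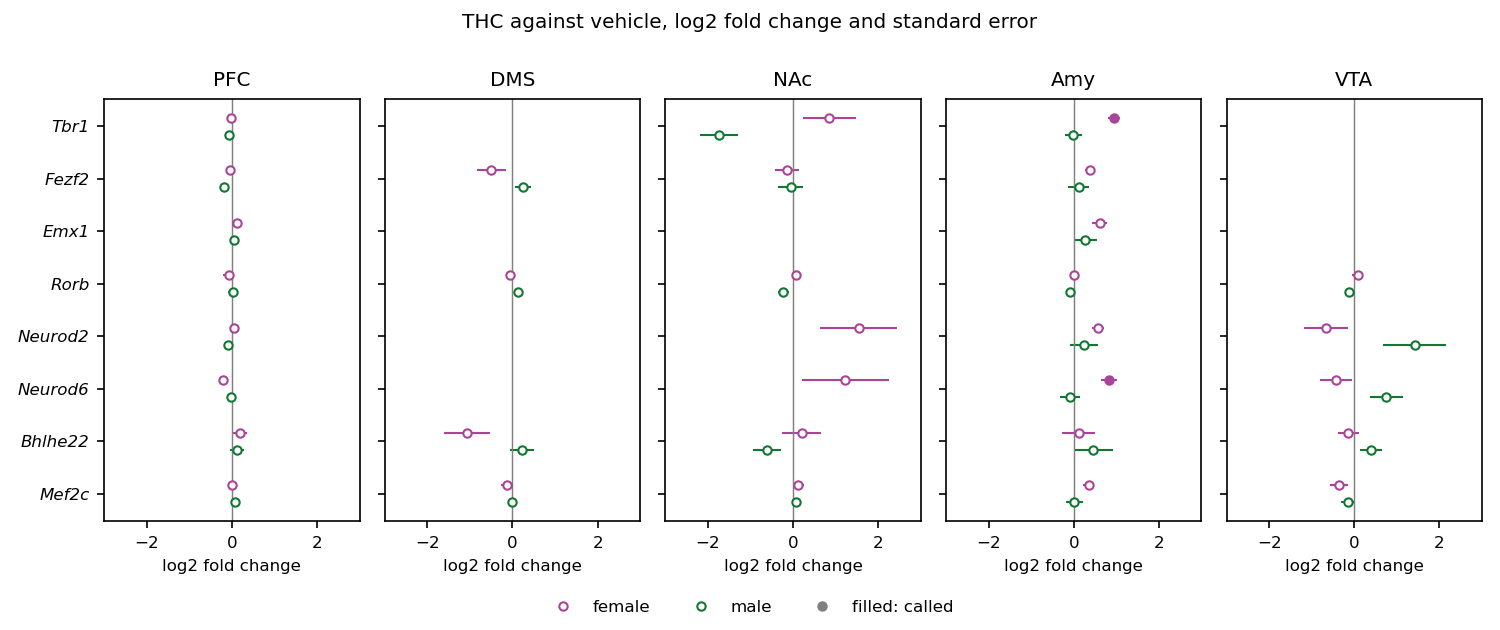
Log2 fold change of THC against vehicle (x axis) with its standard error for each member (y axis) in the 5 regions, violet for females and green for males, filled where called and absent where the gene did not pass the filter. Tbr1 at 0.94 and Neurod6 at 0.83 in the female amygdala are the 2 filled points.

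Over all 119 libraries each member was followed closely by other genes, with the likeness measured as Pearson's r of log2 CPM and resting largely on the regions. Tbr1 was most like Dlgap1, a postsynaptic scaffold gene (r = 0.969), Dgkz (0.962) and Fam81a (0.957). Emx1 was most like Lingo1 (0.956), Gpr22 (0.953) and Stx1a (0.949). Neurod2 was most like Rtn4r, the Nogo receptor (0.959), Slc30a3, the zinc transporter of synaptic vesicles (0.959), and Cck (0.951). Neurod6 was most like Cck, the cholecystokinin precursor (0.969), Rtn4r (0.956) and C730002L08Rik (0.954). Fezf2 was most like Enc1 (0.975), Syt16 (0.968) and Fam131a (0.968). Bhlhe22 was most like its partner Prdm8 (0.960), Ptprk (0.958) and Slc30a3 (0.953). Mef2c was most like Sirpa (0.988), 9330121K16Rik (0.986) and Gpm6a (0.983), and Rorb most like Sel1l3 (0.952), Gm4081 (0.942) and Zmat4 (0.940). Among NAc libraries alone, as seen after the values, the 3 genes most like Rorb included Kcnj10, the potassium channel of astrocytes (r = 0.885).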

How the data were processed

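Libraries had been made by the authors from polyadenylated RNA with a directional kit and sequenced as read pairs, from punches with an RNA integrity number above 7.5. Reads were trimmed with cutadapt 2.9, aligned to mm10 with STAR 2.7.3a and counted per gene with RSEM 1.3.1, by the submitters' processing notes. The deposited values are expected counts as the authors obtained them from RSEM, not normalized, in 2 tables of 55291 genes. RSEM divides reads that fit several genes, and 4.75% and 5.00% of the values were not whole. Columns of per-library values not used numbered 0.

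Expected counts were rounded and fitted with edgeR 4.0.16 in R 4.3.3 (filterByExpr, TMM, robust quasi-likelihood F test), each THC comparison on its own 2 groups, interactions on the 4 groups of a region and regions on all 119 libraries. The SE of a log2 fold change is its size divided by the square root of F. P-values were adjusted by Benjamini-Hochberg over all genes tested. Log2 CPM used a prior count of 2. Correlations had 100000 permutations, two-sided, over 24 libraries. Depth limits the precision of members at a few counts. Within a region p-values measure the spread between libraries of separate mice, and those between regions treat the libraries of a mouse as independent. The fits were tested on simulated data. Alternatives were DESeq2 1.42.0, its size factors in edgeR, no filter (at least 1 count), the 4 groups of a region in 1 fit, library totals, vehicle libraries only and libraries left out. Leaving out library FTL_285, FTL_344 or FTL_356 alone, each NAc library, and library totals in the female amygdala were added after the data were seen. The members and gene lists were chosen with earlier results of these data known. Named genes are the 8 members, the 3 genes most like each, and from each other list the 2 largest changes called in a direction, beyond which names were chosen after their values were seen.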

Additional observations from a re-analysis of the deposited data

Results flagged for a closer look

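A library was marked where its gap to the nearest library, over the range of its group, was above Dixon's 95% critical value. Of 160 pairs of member and group 30 were marked, and chance marks about 1 in 20 groups.

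The DMS vehicle library FTL_285 of the females was marked high in 7 members, at 21.4 CPM of Tbr1, 1.57 CPM of Emx1, 12.9 CPM of Neurod2, 11.2 CPM of Neurod6, 9.24 CPM of Fezf2, 5.07 CPM of Bhlhe22 and 188.5 CPM of Mef2c. Elsewhere in the DMS, library FTL_308 (male THC) was high at 2.25 CPM of Tbr1, 1.04 CPM of Neurod2 and 2.36 CPM of Bhlhe22. Library FTL_296 (female THC) was high at 1.29 CPM of Tbr1 and 0.643 CPM of Neurod2, and library FTL_299 (male vehicle) at 0.359 CPM of Neurod2. Slc17a7 was at 19.0 CPM in library FTL_308 and 10.7 CPM in library FTL_296, the highest of the DMS after library FTL_285.

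In the PFC library FTL_262 was high at 56.6 CPM of Rorb, library FTL_277 at 786 CPM of Mef2c and library FTL_282 at 68.8 CPM of Fezf2. In the NAc library FTL_313 was high at 7.07 CPM of Tbr1 and library FTL_324 at 6.06 CPM of Bhlhe22. In the male amygdala vehicle group library FTL_350 was low at 2.49 CPM of Emx1 and 13.1 CPM of Neurod2, and library FTL_346 was high at 18.7 CPM of Rorb.

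In the VTA library FTL_371, the shallowest of the series at 3.09 M, was high at 1.19 CPM of Tbr1, 8.95 CPM of Neurod2, 0.298 CPM of Fezf2 and 17.3 CPM of Bhlhe22. The Tbr1 and Fezf2 values rest on 4 counts and 1 count. Library FTL_361 was high at 0.727 CPM of Emx1, library FTL_360 at 11.4 CPM of Neurod6, library FTL_367 at 0.819 CPM of Tbr1, library FTL_368 at 0.700 CPM of Fezf2 and library FTL_376 at 18.3 CPM of Rorb.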

How the results depend on the processing

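Of 1559 values recomputed under an alternative, 1473 kept their direction and side of the threshold (for counts, came within 1.5 times), 40 changed sign, 24 counts moved, 13 values lost a call and 9 gained one. The count of all genes called in the female amygdala was 0.483% of the genes in the table in edgeR, 0.988% (546 genes) with DESeq2 (260 of them shared with edgeR) and 0.228% (126 genes, 119 shared) with the 4 groups of the region in 1 fit, and ran from 0.101% to 0.523% with 1 library left out, falling by over 1.5 times without FTL_333, FTL_335, FTL_339, FTL_340, FTL_342 or FTL_344. Tbr1 was called there in each of these. The cause of the other shifts was not tested. With DESeq2 the counts were 1 in the female PFC (edgeR 0), 22 in the female DMS (2), 3 in the DMS interaction (0), 20 in the male NAc (0), 29 in the Amy interaction (1), and for the VTA 3 among females (0) and 1 among males (0). With no filter they were 4 in the female DMS, 2 in the Amy interaction and 1 in the female VTA. The female DMS gave 5 with the 4 groups in 1 fit and 6 without library FTL_285, the female NAc 0 to 1 with 1 library left out (1 without library FTL_309), and the Amy interaction 0 without libraries FTL_344 and FTL_356 and 2 without either alone.

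Signs changed only in values near 0 or without a call. These were Rorb in the female amygdala (-0.028, library totals), Mef2c in the male amygdala (-0.0008, no filter), Rorb in Amy against NAc (-0.001) and Emx1 in NAc against VTA (0.22), both in vehicle libraries only. Without library FTL_285 Mef2c was 0.0199 in the female DMS and 0.0263 in the DMS interaction, and Bhlhe22 in the Amy interaction ran from -0.549 without FTL_344 to 0.0822 without FTL_356. In the amygdala under library totals r was -0.0144 for Tbr1 and Rorb, -0.0085 for Neurod6 and Bhlhe22, and -0.0498 for Mef2c and Rorb. With 1 library left out the log2 fold change ran from -0.0865 to 0.322 for Bhlhe22 and -0.0448 to 0.0476 for Rorb in the female amygdala, and from -0.0968 to 0.378 for Bhlhe22 and -0.275 to 0.0023 for Fezf2 in the female NAc. It ran from -0.22 to 0.197 for Fezf2 in the male NAc, and in the male amygdala from -0.127 to 0.0863 for Tbr1, -0.251 to 0.0442 for Neurod6, -0.0133 to 0.42 for Neurod2, -0.0174 to 0.239 for Fezf2 and -0.181 to 0.103 for Mef2c.

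No paired analysis was possible because the labels give each library a number of its own and tie no libraries to 1 mouse. Depth limits the members at a few counts, such as Emx1, Neurod2 and Neurod6 in the DMS and NAc.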
